A study of Mus musculus with 4 samples.

Results

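The insulin-like growth factor (IGF) family was followed by RNA sequencing of whole dorsal root ganglia of the mouse, the clusters of sensory neuron cell bodies beside the spinal cord. Its 10 members were taken by gene name from an expression matrix of 14405 genes: the ligands Igf1 and Igf2, the receptors Igf1r and Igf2r, and the binding protein genes Igfbp2, Igfbp3, Igfbp4, Igfbp5, Igfbp6 and Igfbp7. All 10 were found, and all 10 passed the filter of a mean of at least 1 FPKM (sequenced fragments corrected for gene length and library size) in either group, as did 14040 genes in all. The family was chosen by its FPKM differences between mutant and wild type in these same samples, with no threshold on the single gene, so those differences are given as a description, with no test.

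There were 2 groups of 2 samples each, all from mice 10 weeks old and of a strain given as mixed. The mutants had the genotype Prdm12-/Fl; AvilCreERT2/+, that is a null allele and a floxed allele of Prdm12 together with a tamoxifen-inducible Cre recombinase under Avil, a gene of sensory neurons. The other group was wild type. Whether the wild type mice carried Cre or received tamoxifen, the dose and timing of tamoxifen, and any pooling of ganglia over animals are not stated in the labels. Cre under Avil acts in sensory neurons, while the ganglion also holds glia, fibroblasts, vessels, macrophages and its meningeal sheath. The targeted gene Prdm12, which encodes a transcription factor of developing nociceptors, was at 1.05 and 1.50 FPKM in the mutants, against 7.58 and 10.7 FPKM in wild type.

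IGF1 and IGF2 are small secreted growth factors that promote growth and survival through the receptor tyrosine kinase encoded by Igf1r. The protein of Igf2r, which also sorts lysosomal enzymes carrying mannose 6-phosphate, takes up IGF2 and delivers it to lysosomes. Most extracellular IGF is held by binding proteins, which lengthen its life and limit or direct its access to the receptor. In the mouse Igf2 is imprinted and transcribed mainly from the paternal allele, except in the leptomeninges and choroid plexus, where both alleles are active.

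The promoters of the 3 members with the largest differences (Igf2, Igfbp2 and Igfbp3) are shown beside that of Igfbp4, whose group means lay closest together. Each runs from 250 bases before to 50 bases after an annotated start, 300 bases in all, and was taken from RefSeq on GRCm38.p6, the assembly of mm10. All 10 members had an entry, 14 windows in all. Igf2 had 4 windows, of which the one nearest the 3′ end of the gene is printed. Igfbp2 had 2, of which the one nearest the 5′ end of the gene is printed. Gene-level FPKM do not show which start was used. Capitals mark TATAAA and TATATA on the printed strand, and GGGCGG and CCAAT on either strand, so that CCGCCC and ATTGG stand for the reverse strand.
Igf2, chr7:142657447-142657746, minus strand: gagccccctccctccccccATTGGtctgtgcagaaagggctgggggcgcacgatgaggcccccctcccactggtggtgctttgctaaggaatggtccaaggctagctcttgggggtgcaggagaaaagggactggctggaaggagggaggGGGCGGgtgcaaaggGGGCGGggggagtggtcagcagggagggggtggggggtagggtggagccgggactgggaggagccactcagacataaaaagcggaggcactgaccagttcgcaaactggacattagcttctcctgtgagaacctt
Igfbp2, chr1:72824230-72824529, plus strand: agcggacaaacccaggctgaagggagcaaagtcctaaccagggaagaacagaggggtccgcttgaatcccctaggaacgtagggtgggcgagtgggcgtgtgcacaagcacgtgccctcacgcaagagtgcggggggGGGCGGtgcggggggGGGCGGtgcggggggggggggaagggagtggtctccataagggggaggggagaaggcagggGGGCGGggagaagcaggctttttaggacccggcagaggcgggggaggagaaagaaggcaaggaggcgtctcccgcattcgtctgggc
Igfbp3, chr11:7213874-7214173, minus strand: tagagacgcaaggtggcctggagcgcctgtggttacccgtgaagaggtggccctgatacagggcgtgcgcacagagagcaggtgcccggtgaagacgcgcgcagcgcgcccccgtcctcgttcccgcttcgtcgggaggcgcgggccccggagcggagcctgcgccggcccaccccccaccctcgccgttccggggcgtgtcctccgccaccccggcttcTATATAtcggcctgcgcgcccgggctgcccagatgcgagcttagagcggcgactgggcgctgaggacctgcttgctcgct
Igfbp4, chr11:99040994-99041293, plus strand: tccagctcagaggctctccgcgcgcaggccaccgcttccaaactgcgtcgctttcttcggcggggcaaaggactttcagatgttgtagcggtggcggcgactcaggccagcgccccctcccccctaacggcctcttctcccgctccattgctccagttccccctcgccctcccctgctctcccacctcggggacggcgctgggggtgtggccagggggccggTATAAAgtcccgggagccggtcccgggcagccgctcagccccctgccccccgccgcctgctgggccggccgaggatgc

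No motif searched was common to the printed windows of the 3 members. The printed Igfbp2 window held 3 copies of GGGCGG, the printed Igf2 window 2, and the Igfbp3 window 0. The other Igfbp2 window held 0 copies, and the other Igf2 windows held 0, 0 and 1, while 35.7% of the 32851 promoter windows in the RefSeq table held at least 1. The Igfbp3 window held TATATA at base 221, a motif found in 5.67% of all windows. The Igfbp4 window held TATAAA at base 223, found in 8.32% of all windows. CCAAT was present in the printed Igf2 window, on the reverse strand, and in 37.4% of all windows. The number of CpG pairs was 7 in the printed Igf2 window and 2, 14 and 24 in the other Igf2 windows. It was 18 in the printed Igfbp2 window and 14 in the other, 37 for Igfbp3 and 27 for Igfbp4, beside a median of 7 over all windows.

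The ligand Igf2 was lower in the mutants. It had 121 and 89.9 FPKM in mutant 1 and 2, against 357 and 248 FPKM in wild type 1 and 2. Both mutants lay below both wild types, with the highest mutant value under the lowest wild type value. The means were 106 ± 22.2 FPKM in the mutants and 302 ± 76.9 FPKM in wild type (SD, n = 2 each), 2.86-fold lower. On the log2(FPKM + 1) scale the difference, mutant minus wild type, was -1.50 with a standard error of 0.25, where only 0.264% of the genes tested had a lower difference. With each sample left out in turn the difference ran from -1.76 to -1.24. As the groups did not overlap, its sign could not change. Igf2 (ENSMUSG00000048583.16) lies on chromosome 7 at 142650766 to 142666816, minus strand, in the GENCODE annotation of GRCm38. The authors' deposited table, a list of 150 genes past their limits, gives Igf2 a log2 fold change of -1.52 with q = 0.00742. That value comes from these same samples, by which the family was chosen, so it is no separate support.

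Igf1, the ligand that circulates from liver and is also made locally, differed more between the wild type samples than between the groups. It had 19.6 and 14.7 FPKM in the mutants, against 36.6 and 15.5 FPKM in wild type. The high value stood in wild type 1 alone, and the groups overlapped. The log2 difference was -0.47 ± 0.41 (standard error), and 0.12 without wild type 1. Socs2, a feedback inhibitor of growth hormone signalling named after its values were seen, had 12.9 and 15.6 FPKM in the mutants and 26.7 and 14.7 FPKM in wild type, with wild type 1 again highest.

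The balance of the ligands differed between the groups. Igf2 exceeded Igf1 by 6.20-fold and 6.14-fold in the mutants, against 9.73-fold and 16.0-fold in wild type. The summed level of both ligands was 141 and 105 FPKM in the mutants, against 393 and 263 FPKM in wild type.

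Both receptor genes had low levels and small differences. Igf1r had 3.10 and 2.73 FPKM in the mutants, against 4.07 and 3.77 FPKM in wild type. The groups did not overlap, and the mutant mean was 74.3% of the wild type mean (log2 difference -0.33 ± 0.15, standard error). Igf2r had 3.71 and 3.36 FPKM in the mutants, against 4.73 and 3.73 FPKM in wild type. Mutant 1 and wild type 2 differed by little, and the groups overlapped after rescaling by median ratios and after quantile normalization. The log2 difference of Igf2r was -0.20 ± 0.17 (standard error). The antisense RNA Airn overlaps Igf2r, and since the strandedness of the libraries is not given, reads of the overlap cannot be told apart. The ratio of Igf2r to Igf1r was 1.20 and 1.23 in the mutants, against 1.16 and 0.988 in wild type.

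**Figure D1:**
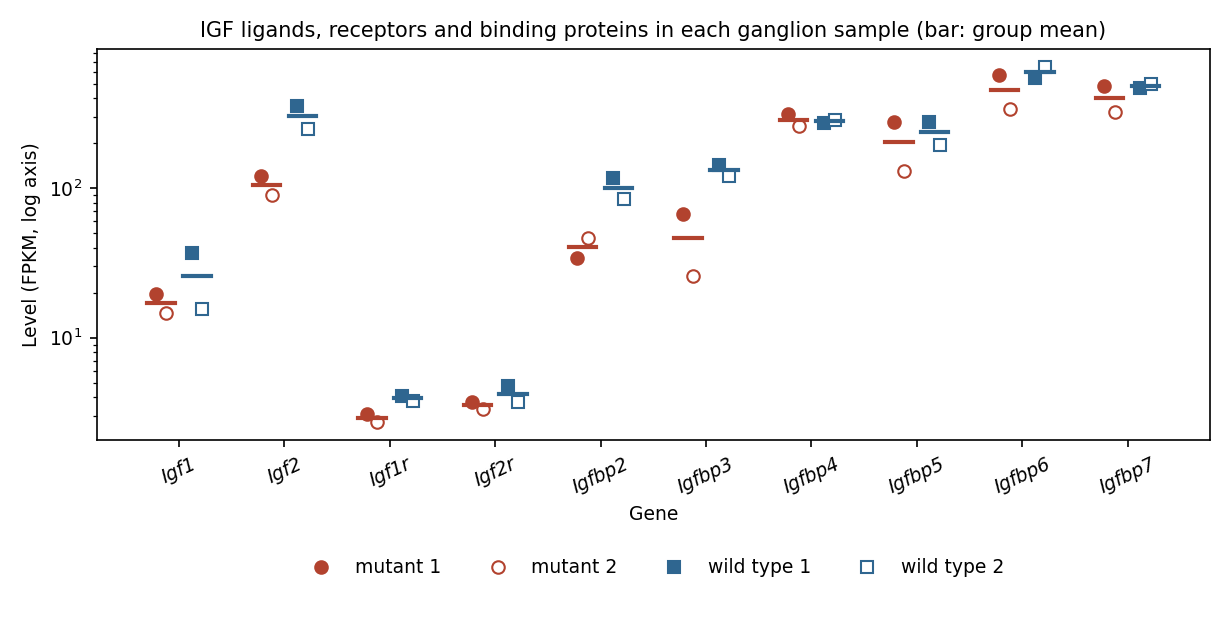
Levels of the 10 members in each sample, in FPKM on a log axis, with mutants as circles to the left of wild types as squares, replicate 1 filled and replicate 2 open, and a bar at each group mean. Igf2, Igfbp2 and Igfbp3 show the widest gaps between the groups, with both mutants below both wild types.

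Among the binding proteins, Igfbp2 and Igfbp3 were lower in both mutants. Igfbp2, which carries IGF2 with high affinity, had 33.9 and 46.5 FPKM in the mutants, against 116 and 85.0 FPKM in wild type. No mutant value reached a wild type value, and mutant 1 was the lowest sample. The means were 40.2 ± 8.92 FPKM in the mutants and 101 ± 22.1 FPKM in wild type (SD, n = 2 each), 2.50-fold lower, with a log2 difference of -1.30 ± 0.24 (standard error). Igfbp3, the main carrier of IGF in blood, had 67.2 and 25.8 FPKM in the mutants, against 143 and 120 FPKM in wild type. Here mutant 2 was the lowest sample, 2.60-fold under mutant 1. The means were 46.5 ± 29.2 FPKM in the mutants and 132 ± 16.2 FPKM in wild type (SD, n = 2 each), 2.83-fold lower. The log2 difference of Igfbp3 was -1.63 ± 0.44 (standard error), -0.95 without mutant 2 and -2.30 without mutant 1. Igfbp3 (ENSMUSG00000020427.11) lies on chromosome 11 at 7206086 to 7213923, minus strand. The authors' deposited table lists Igfbp2 at a log2 fold change of -1.32 and Igfbp3 at -1.50, each with q = 0.00742. These values too come from the same samples and are no separate support.

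Igfbp4, whose protein is cut by the protease PAPP-A to free bound IGF, had nearly equal means. It had 312 and 259 FPKM in the mutants, against 274 and 287 FPKM in wild type. The wild type values lay between the mutant values, and the log2 difference was 0.02 ± 0.17 (standard error), running from -0.11 to 0.15 with each sample left out and reaching -0.04 after quantile normalization.

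Igfbp5, Igfbp6 and Igfbp7 were low in mutant 2 and not in mutant 1. Igfbp5, a binding protein that also attaches to extracellular matrix, had 276 and 130 FPKM in the mutants, against 279 and 194 FPKM in wild type. Its log2 difference was -0.29 ± 0.39 (standard error) with all samples and 0.25 without mutant 2. Igfbp6, which binds IGF2 in preference to IGF1, had 572 and 339 FPKM in the mutants, against 549 and 646 FPKM in wild type. Mutant 1 lay between the wild types, and the log2 difference was -0.44 ± 0.28 (standard error) with all samples and -0.06 without mutant 2. Igfbp7, a vessel-associated relative with low affinity for IGF, had 481 and 322 FPKM in the mutants, against 471 and 500 FPKM in wild type. Its log2 difference was -0.30 ± 0.23 (standard error) with all samples and -0.01 without mutant 2. In these 3 genes the groups overlapped. After quantile normalization, Igfbp6 and Igfbp7 no longer overlapped.

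**Figure D2:**
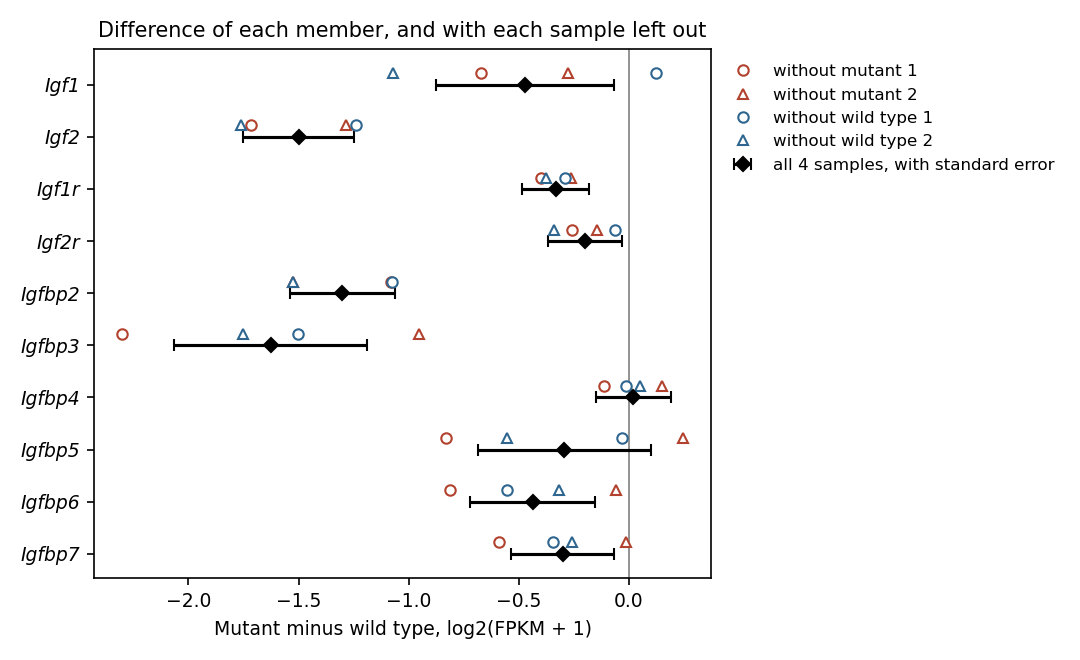
Difference of each member, mutant minus wild type, on the log2(FPKM + 1) scale, with the standard error of the limma fit (diamonds with bars) and the value with each sample left out (open symbols). Igf2 and Igfbp2 lie below -1 in every case shown, Igfbp3 reaches -0.95 without mutant 2, and Igf1, Igfbp4 and Igfbp5 cross 0. Where the groups do not overlap, leaving a sample out cannot change the sign.

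Summed over the 6 binding protein genes, the level was 1742 and 1123 FPKM in the mutants, against 1832 and 1832 FPKM in wild type. The lower sum stood mainly in mutant 2. Igfbp6 and Igfbp7 made up most of this sum in every sample, with Igfbp6 at 32.8% and 30.2% in the mutants, against 30.0% and 35.3% in wild type. The share of Igfbp3 was 3.86% and 2.30% in the mutants, against 7.81% and 6.56% in wild type. The share of Igfbp2 was 1.95% and 4.14% in the mutants, against 6.34% and 4.64% in wild type. In turn Igfbp4 made up 17.9% and 23.1% in the mutants, against 14.9% and 15.6% in wild type. The binding protein sum exceeded the summed ligands by 12.4-fold and 10.7-fold in the mutants, against 4.66-fold and 6.96-fold in wild type.

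**Figure D3:**
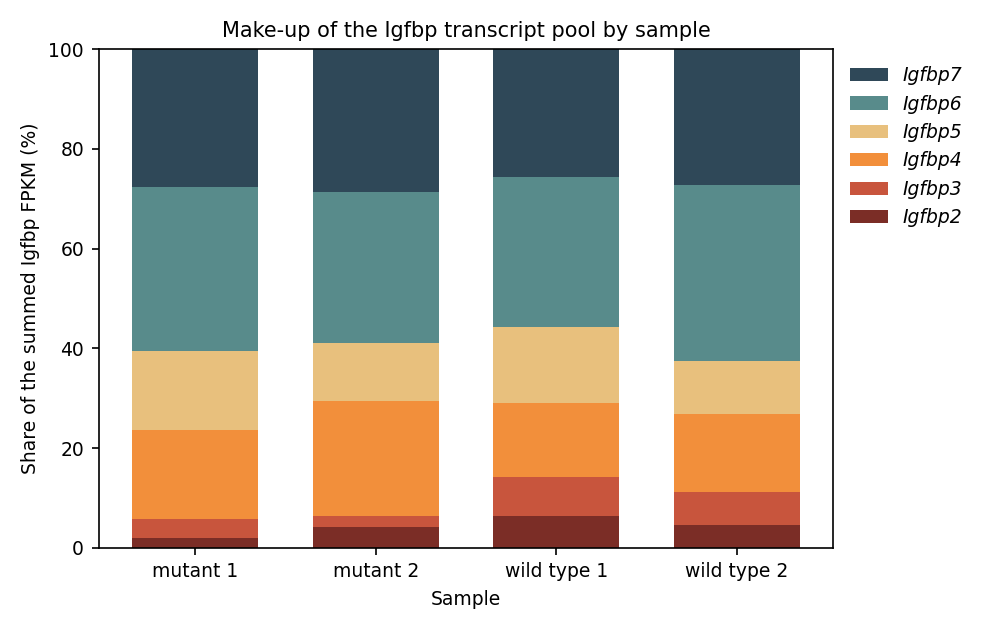
Share of each gene in the summed Igfbp FPKM, in percent, for each sample, mutants on the left. Igfbp6 and Igfbp7 fill most of each bar, and the segments of Igfbp2 and Igfbp3 together are thinner in each mutant than in either wild type.

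The order of mean levels differed in the place of Igf2. In the mutants the means ran from Igfbp6 (455 FPKM) through Igfbp7, Igfbp4, Igfbp5, Igf2, Igfbp3, Igfbp2, Igf1 and Igf2r to Igf1r (2.91 FPKM). In wild type they ran from Igfbp6 (598 FPKM) through Igfbp7, Igf2, Igfbp4, Igfbp5, Igfbp3, Igfbp2, Igf1 and Igf2r to Igf1r (3.92 FPKM). In the mutants the neighbours Igfbp6 and Igfbp7, Igfbp4 and Igfbp5, and Igfbp3 and Igfbp2 overlapped between samples. In wild type Igf2 and Igfbp4, Igfbp4 and Igfbp5, and Igf2r and Igf1r overlapped, so these neighbours were not apart beyond their spread. Igf2 also overlapped Igfbp5 in wild type, so its place above Igfbp4 and Igfbp5 there rests on the means alone. Among the 14040 genes tested, Igf2 ranked 956 by level in the mutants and 344 in wild type.

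Of the 10 members, 5 had mutant values that all lay under the wild type values (Igf2, Igf1r, Igfbp2, Igfbp3 and, only without rescaling or quantile normalization, Igf2r), and 0 were higher. Over all genes tested, 19.6% were lower without overlap and 12.5% higher. The median log2 difference was -0.38 over the members and -0.00476 over all genes tested. A negative difference was found in 9 of 10 members and in 50.9% of all genes tested. The family was chosen by these differences in the same samples, so the member counts given here are no test of it. Of the authors' deposited table, 3 members are listed, all lower in the mutants, where 0.896% of the genes in the matrix are listed as lower. With limma on log2(FPKM + 1) and Benjamini-Hochberg adjustment, 0 of 14040 genes passed an adjusted p of 0.05 in either direction (0%), and 612 (4.36%) had an unadjusted p under 0.05. With 2 samples a group, the smallest two-sided p of an exact permutation test is 0.333.

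**Figure D4:**
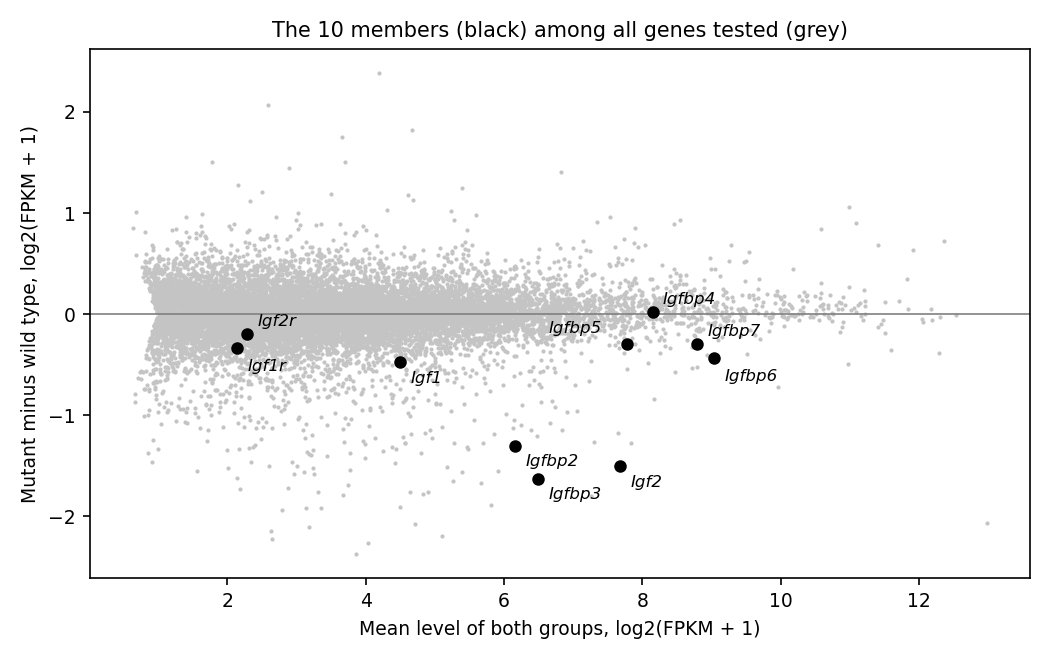
Difference between mutant and wild type against the mean level of both groups, each on the log2(FPKM + 1) scale, for the 14040 genes tested (grey) and the 10 members (black). Igf2, Igfbp2 and Igfbp3 lie below -1, where 0.919% of all genes lie, and the other 7 members lie between -0.47 and 0.02.

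Igfbp2 and Igfbp5 lie near each other, and Igf2 lies near H19. Igfbp2 (chromosome 1, 72824503 to 72852474, plus strand) and Igfbp5 (72857932 to 72874884, minus strand) are separated by 5457 bases, with their 3′ ends facing each other. Their values did not move together, since mutant 1 had the lowest Igfbp2 and nearly the highest Igfbp5, and the ratio of Igfbp2 to Igfbp5 was 0.123 and 0.358 in the mutants, against 0.417 and 0.439 in wild type. H19, a noncoding RNA of the imprinted Igf2 domain, lies 72622 bases from Igf2. It had 114 and 68.2 FPKM in the mutants, against 185 and 161 FPKM in wild type, a log2 difference of -0.96 ± 0.27 (standard error) that did not pass (limma adjusted p = 0.861). Igf2 exceeded H19 by 1.06-fold and 1.32-fold in the mutants, against 1.92-fold and 1.54-fold in wild type.

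Of 84 listed genes of the wider IGF system that are not members, 67 were tested, and 0 passed in either direction (smallest limma adjusted p = 0.699). The matrix held no row named for 16, among them Ins1, Ins2, Igfbp1 and the protease genes Pappa and Pappa2, and 1, Igfals, was below the filter. Of the 67 tested, 20 were lower and 4 higher without overlap, beside 19.6% lower and 12.5% higher over all genes tested. The median log2 difference of the 67 was -0.07. The widest differences stood in 10 matrix and secreted genes whose proteins share a domain with the binding proteins or cut them, with 4 lower, 1 higher and a median of -0.48. Ctgf, a matricellular protein, had 81.9 and 49.7 FPKM in the mutants, against 141 and 131 FPKM in wild type (log2 difference -1.08), and the authors' deposited table lists it at -1.05 with q = 0.0131. Crim1, a membrane protein that holds BMP ligands, had 10.1 and 6.19 FPKM in the mutants, against 19.2 and 15.7 FPKM in wild type. The only one higher was Cyr61, a relative of Ctgf named after its values were seen, with 25.5 and 17.6 FPKM in the mutants, against 12.8 and 11.1 FPKM in wild type.

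Genes acting below the receptor stood close to 0. Of 29 tested genes of receptor signalling, 5 were lower and 2 higher without overlap, with a median log2 difference of -0.02 and a range of -0.29 to 0.40. Over all genes tested, 19.6% were lower and 12.5% higher without overlap. Pik3ca, a catalytic subunit of phosphoinositide 3-kinase, had 7.84 and 6.46 FPKM in the mutants, against 9.07 and 8.75 FPKM in wild type. Pik3r3, a regulatory subunit, had 4.47 and 4.67 FPKM in the mutants, against 6.30 and 5.26 FPKM in wild type. The insulin receptor gene Insr had 4.06 and 2.74 FPKM in the mutants, against 4.07 and 3.83 FPKM in wild type, with overlap. Of 14 genes of the mannose 6-phosphate pathway, which shares the protein of Igf2r, 4 were lower and 0 higher without overlap, with a median of -0.05. The lysosomal membrane gene Lamp2 was at -0.23 on the log2 scale. Of 6 growth hormone axis genes, 1 was lower (Jak2, -0.12) and 1 higher (Stat5a, 0.06), with a median of -0.07. The protease genes Adam12 (-0.44) and Adam9 (-0.17) and the regulator gene Plagl1 (-0.22) were lower without overlap, and the IGF2 mRNA-binding protein gene Igf2bp2 was at 0.09.

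The sums of 4 of the 13 marker lists did not overlap between the groups, those of the meninges, erythrocytes, bone and endothelium. Of these sums 2 were lower and 2 higher in the mutants, beside 19.6% lower and 12.5% higher over all single genes tested. The summed level of 16 meningeal markers was 3523 and 3212 FPKM in the mutants, against 13788 and 13600 FPKM in wild type. None of the 16 was at 0, and 14 were lower without overlap, beside 19.6% lower and 12.5% higher over all genes tested. Most of this sum was Ptgds, and without it the sum of the other 15 was 322 and 187 FPKM in the mutants, against 689 and 545 FPKM in wild type. The summed level of 7 erythrocyte markers was 6396 and 6520 FPKM in the mutants, against 3411 and 3203 FPKM in wild type, 1.95-fold higher, and all 7 were higher without overlap. The 5 bone markers found summed to 27.99 and 33.22 FPKM in the mutants, against 27.72 and 27.87 FPKM in wild type, with 3 higher and 1 lower without overlap. The 10 endothelial markers, of a cell type known for Igfbp3 and Igfbp7, summed to 146 and 138 FPKM in the mutants, against 150 and 167 FPKM in wild type. The marker lists were chosen with earlier results of these data known, so counts within them are no test. The part of these markers in the differences of the IGF family was not tested. In bulk tissue, fewer cells of a type and less RNA per cell cannot be told apart.

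Other lists overlapped in their sums. The sum of 10 fibroblast markers was 6704 and 3703 FPKM in the mutants, against 6623 and 5202 FPKM in wild type. It was lowest in mutant 2, the sample in which every member except Igfbp2 was also lowest. In that sample myelin markers (21451 FPKM) and skeletal muscle markers (5096 FPKM) were highest. Mutant 1 had 10290 and 138 FPKM of the same lists, against 10429 and 329 FPKM in wild type 1 and 8328 and 2476 FPKM in wild type 2. The 9 adipocyte markers summed to 282 and 2371 FPKM in the mutants, against 488 and 780 FPKM in wild type, again highest in mutant 2. Without overlap, 6 of the 11 myelin markers were higher in the mutants, and of the 7 satellite glia markers 4 were higher and 1 lower. Over all genes tested these shares were 12.5% higher and 19.6% lower. The 15 neuron markers, all detected, summed to 4653 and 7793 FPKM in the mutants, against 4291 and 6006 FPKM in wild type. The part of these lists in the differences was not tested.

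**Figure D5:**
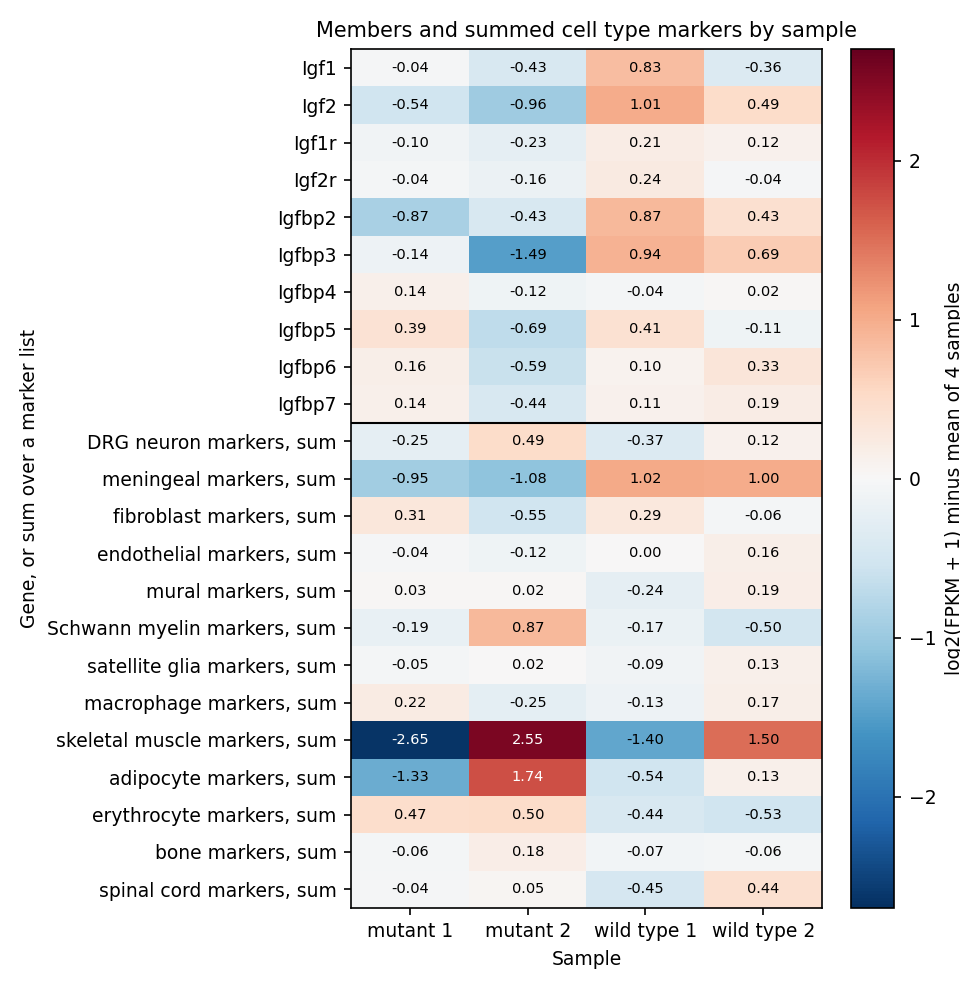
Deviation of each member (above the line) and of each summed marker list (below it) from its mean over the 4 samples, on the log2(FPKM + 1) scale, mutants on the left. Igf2, Igfbp2, Igfbp3, the meningeal marker sum and, by less, Igf1r are below their mean in both mutants and above it in both wild types. The erythrocyte marker sum is the other way round, and Igfbp5, Igfbp6 and Igfbp7 are below their mean most in mutant 2.

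The sexes of the samples were not balanced. The Y-linked gene Eif2s3y had 24.7 and 23.2 FPKM in the mutants, against 21.3 and 0.0252 FPKM in wild type. Xist, which is transcribed from the inactive X chromosome, had 0.0295 and 0.00426 FPKM in the mutants, against 0.0185 and 21.1 FPKM in wild type, so wild type 2 stood apart in both. Without wild type 2 the log2 difference was -1.76 for Igf2, -1.52 for Igfbp2 and -1.75 for Igfbp3, further from 0 than with all 4 samples. Wild type 2 held the lower wild type value of each of these genes, so leaving it out had to widen their differences. These values therefore say nothing of sex, whose part in the differences was not tested.

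The 5 genes whose profile over the 4 samples lay nearest to that of Igf2, by Euclidean distance of centred log2(FPKM + 1) values, were Fmod, Slc9a2, Thsd4, Ildr2 and Upk1b, at distances of 0.0874 to 0.186. Fmod, which encodes the collagen-binding proteoglycan fibromodulin, had 35.3 and 24.1 FPKM in the mutants, against 105 and 72.4 FPKM in wild type. Among the nearest to Igfbp2 were Krt80 (0.341) and Hcar1 (0.344). The nearest to Igfbp3 were Dpp4 (0.214), a gene that is also on the meningeal marker list, Nt5c1a (0.222) and Cxadr (0.227). For Igf1r they were Trim21, Atp1b3 and Gpbp1l1, and for Igf2r Itgb5, Cse1l and Gpr146, all within 0.0318. With 4 samples, many genes can have a like profile.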

How the data were processed

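RNA came from dissected ganglia, with libraries by Illumina protocols per the labels. CASAVA, TopHat2 2.1.2, Cufflinks 2.2.1 and mm10 are named in the submitters' processing notes, without settings. The authors deposited FPKM for 14405 genes. The authors also deposited 150 genes with log2 fold changes, p-values and q-values, in Cuffdiff format per the file headers. Samples were matched to columns by title. FPKM hold no counts and totalled 620018 to 686830 a sample. Only 26 genes had values under 0.1 FPKM in at least 2 samples, too few to recover reads, so depth is unknown.

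Differences come from limma 3.58.1 (R 4.3.3, trended variance prior) on log2(FPKM + 1), which understates changes of low genes, over 14040 genes whose mean reached 1 FPKM in a group. P-values were adjusted by Benjamini-Hochberg, with a threshold of 0.05. The script was tested on simulated data. Separate animals are not stated, so p-values cover the spread between these samples only, which may be technical. The members and lists were chosen with earlier results of these data known. Named were all members, the 2 widest differences without overlap per wider list, the nearest profiles among genes of at least 5 FPKM, and genes said to be picked after their values were seen. Other pseudocounts, filters and scalings, no trend, a replicate block and each sample left out were tried. Some genes that these rules take are not reported here.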

Additional observations from a re-analysis of the deposited data

How the results depend on the processing

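Of 40 differences of single members under another pseudocount or scaling, 39 moved by less than 1 SD between replicates, and that of Igf1r with a pseudocount of 0.1 moved by more, to -0.42. Other filters, no trend and the replicate block leave a member's difference as it is by construction, and with 2 samples a group leaving one out cannot move it by more than 1 SD, so these say nothing of its stability. The sign was the other one in 5 values, all of them for Igf1, Igfbp4 or Igfbp5. With each sample left out, the median log2 difference of the members ran from -0.74 (without mutant 1) to -0.20 (without mutant 2). The members lower without overlap ran from 5 to 10, all 10 without mutant 1, and those higher from 0 to 1. The wider IGF system genes without overlap ran from 9 to 22 higher and from 27 to 34 lower. A single sample overlaps less often, and a lone sample is assumed to vary like the other group. The shares over all genes given above are for 2 samples against 2. These counts, and those of the members, therefore have no share beside them and cannot be weighed. Genes called over the whole matrix ran from 0 to 2 higher and from 0 to 3 lower with each sample left out, all of them called without wild type 1. At a filter of 5 FPKM, 3 members were lower without overlap, because Igf1r and Igf2r were removed. The wider genes higher without overlap numbered 9 after rescaling by median ratios and 7 after quantile normalization.

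With a replicate block, 3 genes were called higher and 58 lower. The labels tie the numbers to no shared animal, litter or day, and with 2 pairs the samples share only a number. The deviations of same-numbered samples had a correlation of 0.487 across 13790 genes, which are not independent replicates. The number of samples limits precision, and depth is unknown.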
